A study of Mus musculus with 51 samples.

Results

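The genes of the insulin-like growth factor 1 (IGF1) axis described here are the ligand Igf1, its receptor Igf1r, the adaptors Irs1 and Irs2 that the receptor phosphorylates, and the secreted binding proteins Igfbp2, Igfbp3, Igfbp4, Igfbp5, Igfbp6 and Igfbp7. They were chosen by gene symbol: every probe set with exactly 1 symbol, that of a listed gene, was taken, which gave 10 of the 12393 genes named in this way, and 21 of the 22626 probe sets, in each of the 2 value tables. Igfbp4 has 6 of them, Igf1 and Igfbp7 have 3 each, Igf1r and Igfbp5 have 2 each, and the other genes have 1 each. A probe set was tested when its mean log2 intensity lay at or above the 40th percentile of its table. Of the 21, 16 probe sets of 8 genes were tested in the larger table (12 h, 48 h and 15 d) and 15 probe sets of 8 genes in that of 6 d and 9 d. Irs2 and Igfbp3 have a single dim probe set each and were tested in neither table.

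Expression was measured in the ventral prostate, a lobe of the mouse prostate gland, on 51 Affymetrix arrays. Mice were wild type FVB or FVB-AKT1 transgenic animals, which carry an AKT1 transgene in the same strain, all 8 to 10 weeks old. They received placebo or RAD001 (everolimus), an inhibitor of the kinase complex mTORC1 that acts downstream of AKT. The purpose the labels give is to separate signs of drug action from signs of response. The wild type groups, all on placebo, have 4 arrays each for 12 h and 48 h and 3 for 15 d. Transgenic mice under placebo gave 4, 5 and 7 arrays at those times and 1 array each at 6 d and 9 d. Transgenic mice under RAD001 gave 5, 4 and 6 arrays at 12 h, 48 h and 15 d, 3 at 6 d and 4 at 9 d. No wild type mouse received RAD001, the promoter that drives the transgene and the dose are not given in the sources used here, and the labels call the arrays biological replicates, so p-values measure the spread between these arrays.

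Array medians lay between 91.6 and 109.3 intensity units in the larger table of 42 arrays and between 98.1 and 110.4 in the smaller of 9. Of the 14 luminal epithelial markers on the array, 14 passed the filter, the prostate secretory genes Pbsn and Msmb among them, and 0 of 5 seminal vesicle markers did. Over 500 probe sets are listed at exactly 0 on 4 arrays: 2 transgenic placebo arrays of 15 d (replicates 8 and 9) and 1 RAD001 array each of 6 d (replicate 1) and 9 d (replicate 3). On the first principal component, which carries 26.5% of the variance, the 15 d arrays form 2 sets. Set A holds the 3 wild type arrays, 2 transgenic placebo and 2 RAD001 arrays, and set B the other 5 placebo and 4 RAD001 arrays, so results of 15 d are also given within a set. In transgenic arrays of 15 d, Igfbp7 was higher in set B by 0.65 log2 units (adjusted p = 0.0186), as were 3 Igfbp4 probe sets by 0.50 to 0.58 (4 of 16 probe sets in all, where 32.4% of all probe sets differed). The mouse Akt1 probe set differed by 0.17 ± 0.08 (SE, adjusted p = 0.0936) between transgenic and wild type glands under placebo, and which transcripts it detects was not tested.

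IGF1 binds its receptor, a tyrosine kinase that recruits insulin receptor substrates and through them activates phosphoinositide 3-kinase, AKT and mTORC1. AKT and mTORC1 in turn feed back on the insulin receptor substrates, and FOXO transcription factors, which AKT inhibits, are known activators of some genes of the axis, Irs2 among them. In the prostate, IGF1 is known as a product of stromal cells that acts on the epithelium. The binding proteins hold IGF1 and IGF2 in the extracellular space, prolong their life and control their access to the receptor, except Igfbp7, which binds IGFs weakly.

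The brightest tested probe set of Irs1, of Igf1 and of Igfbp5 showed the largest genotype differences among the brightest probe sets of the 8 tested genes. The 250 bases before their transcription starts are shown with each CpG dinucleotide in capitals, from RefSeq on GRCm38.p6, 5′ to 3′ on the strand of the gene. That of Igf1 is chr10:87860861-87861110 on the plus strand, that of Igfbp5 is chr1:72874866-72875115 and that of Irs1 is chr1:82291440-82291689, both on the minus strand.
Igf1: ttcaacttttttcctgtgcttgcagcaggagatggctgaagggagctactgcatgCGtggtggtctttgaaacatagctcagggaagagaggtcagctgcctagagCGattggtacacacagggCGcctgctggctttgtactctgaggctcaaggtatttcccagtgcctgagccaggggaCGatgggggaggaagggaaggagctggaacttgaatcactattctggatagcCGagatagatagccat
Igfbp5: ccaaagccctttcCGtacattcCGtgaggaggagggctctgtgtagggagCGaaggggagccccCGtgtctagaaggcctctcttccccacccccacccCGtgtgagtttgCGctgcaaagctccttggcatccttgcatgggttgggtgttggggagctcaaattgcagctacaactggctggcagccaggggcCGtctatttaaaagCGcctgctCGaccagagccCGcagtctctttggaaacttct
Irs1: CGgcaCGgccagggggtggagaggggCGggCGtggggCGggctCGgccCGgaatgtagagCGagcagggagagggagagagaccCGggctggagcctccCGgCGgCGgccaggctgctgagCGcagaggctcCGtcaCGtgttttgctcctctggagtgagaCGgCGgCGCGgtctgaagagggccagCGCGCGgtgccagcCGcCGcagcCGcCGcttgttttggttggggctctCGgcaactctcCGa
The window of Igf1 holds 5 CpGs, that of Igfbp5 10 and that of Irs1 28, against a median of 6 over the 32851 promoters of the table. A promoter was found for 10 of the 10 genes (11 windows), and across them the number of CpGs ran from the 5 of Igf1 to 42 in Igf1r. The FOXO core GTAAACA, searched on both strands (TGTTTAC on the other), is in 0 of the 11 windows and in 3.17% of all promoters. That says only that these letters are not in these 250 bases.

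Under placebo, 7 of the 8 tested genes of the axis were lower in AKT1 transgenic than in wild type prostate. Igf1, Irs1 and Igfbp5 were 2.15-fold to 2.61-fold lower, and Igfbp2, Igfbp4, Igfbp6 and Igfbp7 were 1.39-fold to 1.66-fold lower on their brightest probe sets. Igf1r was the exception, at 0.06 ± 0.09 log2 units below wild type (SE, adjusted p = 0.666). Averaged over 12 h, 48 h and 15 d (16 transgenic against 11 wild type arrays), 13 of the 16 probe sets were called lower and 0 higher at an adjusted p of 0.05, where 18.4% of all 13574 probe sets tested were called lower and 15.1% higher. All 16 differences were below 0, beside a median of -0.04 over all probe sets. The arrays of the 2 genotypes did not overlap in 5 of 16 probe sets at 12 h, near the share of all probe sets (30%). They did not overlap in 10 at 48 h (28.4% of all) and 6 at 15 d (13.2%). In 2 of 16 they did not overlap at any of the 3 times (3.12% of all). In bulk tissue, fewer cells of a type and less RNA per cell cannot be told apart.

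Igf1, the ligand, read 260.0, 344, 445 and 553 units in the wild type arrays of 12 h, 324, 433, 548 and 625 at 48 h, and 241, 430.5 and 529 at 15 d (probe set 1437401_at). In transgenic placebo glands it read 199, 227, 266 and 269.7 at 12 h, 142, 145, 163, 174 and 217 at 48 h, and from 126 over a median of 158 to 216 in the 7 arrays of 15 d. Every transgenic array lay below the wild type mean of its time, a pattern whose share over all probe sets was not computed, and the groups overlapped at 12 h only. The mean difference was -1.15 ± 0.13 log2 units (SE), or 2.23-fold (adjusted p = 1.05e-08). The 2 dimmer Igf1 probe sets differed less: 1452014_a_at by -0.41 ± 0.15 (adjusted p = 0.0339) and 1419519_at by -0.12 ± 0.16 (adjusted p = 0.606). The call of 1452014_a_at was lost when any of 8 arrays was left out, at most to an adjusted p of 0.0773 without wild type replicate 2 of 15 d, and with 12 h and 48 h alone (0.0762) or median scaling (0.0654). Probe sets of Igf1 thus disagreed in size, and the brightest carries the figures on Igf1 that follow.

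Igf1r, the receptor tyrosine kinase, read 90.3 to 111 in wild type and 93.3 to 154 in transgenic placebo arrays at 12 h. It read 129 to 151 against 87.2 to 145 at 48 h and 129 to 142 against 89.9 to 145 at 15 d. These ranges overlapped at each time, and none of the 3 genotype differences by time passed (0.21, -0.20 and -0.18, adjusted p from 0.37 to 0.404). The second Igf1r probe set was at or under the floor of 16 units on 31 of the 42 arrays and was not tested.

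Irs1, the adaptor that links the IGF1 and insulin receptors to phosphoinositide 3-kinase, showed the largest genotype difference of the 16 probe sets. Wild type arrays read 252, 258, 319 and 427 at 12 h, 321, 399, 430.0 and 543 at 48 h, and 350.0, 396 and 497 at 15 d. Transgenic placebo arrays read 77.4, 78.4, 95.4 and 206 at 12 h, 100.1, 108, 115, 127 and 136 at 48 h, and from 177 over a median of 248 to 299 at 15 d. The genotypes did not overlap at any time, and 8 of the 9 transgenic arrays of 12 h and 48 h lay below every transgenic array of 15 d. Over the 3 times Irs1 was 1.39 ± 0.13 log2 units (SE) lower in transgenic glands, or 2.61-fold (adjusted p = 2.1e-10). By time the difference was -1.55 ± 0.23 at 12 h, -1.84 ± 0.22 at 48 h and -0.77 ± 0.22 at 15 d. An F-test of equal genotype differences at the 3 times called Irs1 (adjusted p = 0.0323) and none of the other 15 probe sets, where 21.3% of all probe sets were called. That call was lost when wild type replicate 2 of 48 h, wild type replicate 1 or 2 of 15 d or transgenic placebo replicate 5 of 48 h was left out. It was also lost without set B, the set from which 5 of the 7 transgenic placebo arrays of 15 d come (0 of 16, where 9.16% of all were called). Within set A the difference at 15 d was -0.73 ± 0.30 (adjusted p = 0.237).

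Irs2, the second substrate, which carries insulin and IGF1 signals in many tissues, was too dim for a test. Its only probe set read 51.4 to 90.4 in wild type and 26.4 to 75.6 in transgenic placebo arrays at 48 h, and 26.7 to 33.2 against 7.71 to 57.2 at 15 d. Those ranges overlapped at both times.

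Igfbp5, a binding protein held in the extracellular matrix, read 788, 1029.5, 1078 and 1363 in wild type arrays at 12 h, 859, 1046, 1148 and 1487 at 48 h, and 734, 1002 and 1150.2 at 15 d (1452114_s_at). Transgenic placebo arrays read 474, 503, 513 and 597 at 12 h, 424, 465, 508, 535 and 540.2 at 48 h, and from 357 over a median of 437 to 563 at 15 d. As for Irs1, the genotypes did not overlap at any time. The difference was -1.10 ± 0.10 log2 units (SE), or 2.15-fold (adjusted p = 2e-10), and it lay between -1.01 and -1.18 at the 3 times. Within set A at 15 d it was -0.97 ± 0.20 (adjusted p = 0.00656). The second probe set, 1422313_a_at, differed by -0.79 ± 0.25 (adjusted p = 0.014) overall. At 48 h it overlapped, at 235 to 322 in wild type and 201 to 339 in transgenic arrays, and with 12 h and 48 h alone its adjusted p was 0.298. At 15 d it is listed at 0 on transgenic placebo replicate 8, an array with over 500 such values.

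Igfbp6, which binds IGF2 in preference to IGF1, read 324, 420.1, 424 and 482 in wild type and 173, 181, 338 and 343 in transgenic placebo arrays at 12 h. At 48 h it read 467, 490.2, 515 and 601 against 191, 196, 231, 242 and 300.0. At 15 d wild type arrays read 302, 528 and 811 and transgenic arrays from 273 over a median of 422 to 679.9. The genotypes were apart at 48 h only. The mean difference was -0.73 ± 0.15 log2 units (SE, adjusted p = 0.000295), with -1.17 ± 0.26 at 48 h (adjusted p = 0.00104), and the differences of 12 h and 15 d did not pass (-0.73, adjusted p = 0.0533, and -0.30, adjusted p = 0.438). Within set A, which holds all wild type arrays of 15 d, the difference at 15 d was larger, at -0.88 ± 0.32, and did not pass either (adjusted p = 0.155).

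Igfbp4, which restrains IGF1 until the protease pappalysin cleaves it, read 684, 765, 849.8 and 974 in wild type and 444, 538, 579.8 and 623 in transgenic placebo arrays at 12 h (1437405_a_at). At 48 h it read 552, 606, 634 and 788 against 317, 321, 338, 374 and 375. At 15 d wild type arrays read 489, 695 and 936 and transgenic arrays from 419 over a median of 649 to 1192, so the genotypes were apart at 12 h and 48 h and overlapped at 15 d. The mean difference was -0.53 ± 0.13 (SE, adjusted p = 0.00193), and 5 of the 6 Igfbp4 probe sets were called, at -0.39 to -0.54. The sixth, 1421991_a_at, differed by -0.11 (adjusted p = 0.362). The lower level at 15 d was called on 1421992_a_at alone of the 6 (-0.59, adjusted p = 0.012), and it was not called within set A (-0.37, adjusted p = 0.44). The brightest probe set differed by -0.57 ± 0.24 within set A at 15 d and was not called there (adjusted p = 0.24). At 12 h 0 of the 6 were called, although the arrays of the brightest were apart.

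Igfbp7, a matrix protein of vessels and smooth muscle, read 823, 938, 1077 and 1363 in wild type and 634, 641, 661 and 722 in transgenic placebo arrays at 12 h. At 48 h it read 845, 956, 964 and 1036 against 500.4, 573, 611, 646 and 687. At 15 d wild type arrays read 698, 796 and 888 and transgenic arrays from 445 over a median of 748 to 1240.2. As for Igfbp4, the genotypes were apart at 12 h and 48 h and overlapped at 15 d. The mean difference was -0.50 ± 0.12 (SE, adjusted p = 0.00164). Within set A at 15 d it was -0.72 ± 0.19 (adjusted p = 0.0363), against -0.21 ± 0.21 over all arrays of that time. The 2 other probe sets of Igfbp7 were too dim.

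Igfbp2, which many epithelial cells secrete, read 545, 739, 740.4 and 762 in wild type and 466, 473, 559 and 575 in transgenic placebo arrays at 12 h. At 48 h it read 542, 622, 782 and 798 against 354, 463, 531, 534 and 597, and at 15 d 399, 518 and 583 against 262 over a median of 351 to 472. The genotypes overlapped at each time. All 16 transgenic arrays lay below the wild type mean of their time, and the share of all probe sets with that pattern was not computed. The mean difference was -0.47 ± 0.10 (SE, adjusted p = 0.000364). Igfbp3, the main carrier of IGF1 in serum, was too dim for a test, with 29.9 to 55.3 in wild type and 0 to 89.5 in transgenic placebo arrays of the larger table.

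**Figure D1:**
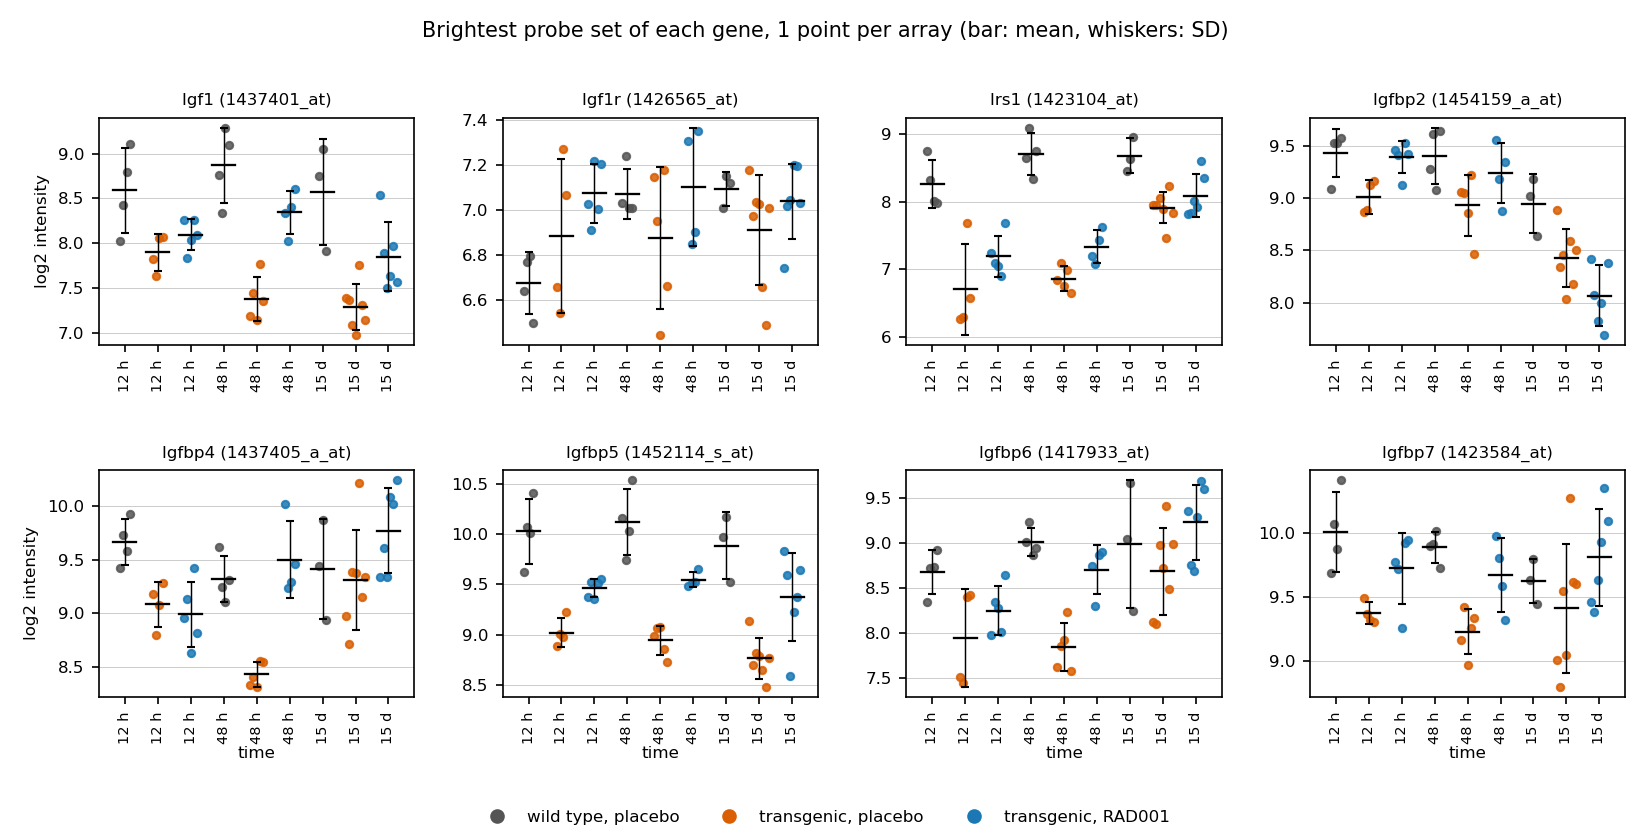
The log2 intensity of the brightest probe set of each tested gene is plotted for every array of the larger table, by group and time, with the mean and SD of each group. Igfbp5 and Irs1 keep all transgenic placebo points below all wild type points of the same time, whereas those of Igf1r overlap at each time.

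Taken at single times, 4 of 16 probe sets were called lower at 12 h (10.2% of all probe sets), 11 at 48 h (14.2%) and 6 at 15 d (10.9%), and none was called higher (10.8%, 11.4% and 10.1% of all). Irs1, Igf1 and Igfbp5 were called at each of the 3 times. The calls of Igf1 at 12 h (-0.69 ± 0.23, adjusted p = 0.0288) and of Igfbp7 at 12 h (-0.64 ± 0.22, adjusted p = 0.0344) were close to the threshold. Without wild type replicate 4 of 12 h, the adjusted p of Igf1 was 0.141, and the number called at that time fell to 2, as it did without transgenic placebo replicate 2 of 12 h. It was 7 without set B, where 29.7% of all were called in either direction. At 15 d, 3 probe sets were called within set A (2.73% of all in either direction), those of Igf1 (-1.19 ± 0.30, adjusted p = 0.0243), Igfbp5 and Igfbp7. In wild type glands 0 of 16 probe sets differed between 48 h and 12 h, where 16.4% of all probe sets did. In transgenic glands under placebo 0 of 16 did, and 0% of all. At an unadjusted p under 0.05 limma gave 1 and 5 of the 16, beside 30.6% and 4.6% of all.

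Under RAD001 the brightest probe sets of Igf1, Igfbp4 and Igfbp5 were higher in transgenic glands at 48 h. At 48 h Igfbp4 rose 2.10-fold, Igf1 1.95-fold and Igfbp5 1.52-fold over transgenic placebo, and at 15 d Igfbp5 and 3 Igfbp4 probe sets were higher. At 12 h none of the 16 probe sets was called and 1.47% of all were. Igf1r, Irs1, Igfbp2, Igfbp6 and Igfbp7 were not called in any of the 4 RAD001 comparisons.

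At 12 h of RAD001 the arrays read 229, 263, 272, 305 and 306 for Igf1, 119, 133, 136, 151 and 206 for Irs1, and 655, 663, 731, 738 and 750.1 for Igfbp5. Of the 16 probe sets, only that of Igfbp5 had all RAD001 arrays above all transgenic placebo arrays (0.44 ± 0.17, adjusted p = 0.241), where 7.46% of all probe sets did not overlap. At an unadjusted p under 0.05, 3 of the 16 passed and 12% of all, and limma with array weights called 2 of 16 and 8.9% of all.

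At 48 h of RAD001, 6 of 16 probe sets were called higher, where 1.97% of all were, and 0 lower. Igfbp4 read 601, 625, 705 and 1039.9 under RAD001, all above the 317 to 375 of placebo (1437405_a_at). The difference was 1.07 ± 0.22 log2 units (SE, adjusted p = 0.00503), and 3 more of the 6 Igfbp4 probe sets rose by 0.83 to 0.99. Igf1 read 260.2, 323, 339 and 391 under RAD001, again above every placebo array (142 to 217). It differed by 0.97 ± 0.22 (adjusted p = 0.00954). Igfbp5 read 716, 733, 739 and 807 against 424 to 540.2, and differed by 0.60 ± 0.17 (adjusted p = 0.0444). The dimmer probe sets of these genes did not pass: Igf1 1419519_at differed by -0.16 (adjusted p = 0.881), Igf1 1452014_a_at by 0.38 (0.494) and Igfbp5 1422313_a_at by -0.26 (0.878), so for Igf1 and Igfbp5 the higher level rests on 1 probe set each. Igfbp6 read 315, 428, 466 and 477 and was also above every placebo array, but its difference of 0.86 ± 0.26 did not pass (adjusted p = 0.0553). Irs1 read 135, 147, 173 and 197 and differed from placebo by 0.47 ± 0.22 (adjusted p = 0.257). Igfbp7 (0.44 ± 0.21), Igfbp2 (0.31 ± 0.17) and Igf1r (0.23 ± 0.15) overlapped with placebo and did not pass (adjusted p = 0.264, 0.361 and 0.492). In 7 of the 16 probe sets RAD001 and placebo arrays did not overlap, as in 7.62% of all probe sets tested. The count of 6 calls fell to 2 without RAD001 replicate 1 or replicate 5 and to 3 without placebo replicate 3 of that time.

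At 15 d of RAD001, 4 of 16 probe sets were called higher, where 2.42% of all were, and 0 lower (3.1% of all). In all 16 the groups overlapped, where 1.94% of all probe sets did not overlap. Igfbp5 read from 384 over a median of 718 to 911 under RAD001, above the placebo maximum of 563 on 5 of 6 arrays. It differed by 0.61 ± 0.14 log2 units (SE, adjusted p = 0.00775). The 3 Igfbp4 probe sets called were 1421991_a_at (0.44), 1421992_a_at (0.55) and 1423756_s_at (0.73). The brightest Igfbp4 probe set read from 646 over a median of 908 to 1212 and was not called (0.46 ± 0.18, adjusted p = 0.147). Different Igfbp4 probe sets therefore carried the calls of 48 h and 15 d, with 1423756_s_at called at both. Igf1 read from 182 over a median of 218 to 372 and was above the placebo mean on 6 of 6 arrays (0.56 ± 0.18, adjusted p = 0.0622). Igfbp2 differed in the other direction, from 207 over a median of 262 to 342 units, and was below the placebo mean on 6 of 6 arrays (-0.36 ± 0.14, adjusted p = 0.139). Neither Igf1 nor Igfbp2 passed, and how many of all probe sets have 6 of 6 arrays on 1 side of the placebo mean was not computed.

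These counts at 15 d rest on the arrays taken. A fit of the 15 d placebo and RAD001 arrays alone called 0 of 16, and 1.61% of all. Within set A the Igfbp5 difference was 0.79 ± 0.22 (adjusted p = 0.122, 2 arrays against 2) and within set B 0.51 ± 0.16 (adjusted p = 0.0513, 4 against 5). Within set B 2 Igfbp4 probe sets were called, 1421992_a_at (0.64 ± 0.17) and 1423756_s_at (0.73 ± 0.22), where 5.85% of all were called in either direction, and within set A none was (0.457% of all). The count was 2 without placebo replicate 9 or RAD001 replicate 4, and 6 without placebo replicate 8. Without the placebo arrays with many zeros, the adjusted p of Igfbp5 was 0.0523. An F-test of equal RAD001 differences at 12 h, 48 h and 15 d called 0 of 16 probe sets and 0.398% of all. At an unadjusted p under 0.05 limma gave 4 of 16 and 12.4% of all, and with array weights it called 3 of 16 and 1.52% of all at the adjusted threshold. A difference between times was thus not shown in the main fit, and for 3 probe sets it depended on the setting.

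At 6 d and 9 d, each day has 1 placebo array, and the spread comes from the RAD001 arrays. Igfbp4 read 456 under placebo and 536, 544 and 621 under RAD001 at 6 d, and 313 against 708, 746, 787 and 791 at 9 d. All 7 RAD001 arrays were above both placebo arrays, a pattern whose share over all probe sets was not computed. The mean difference over both days was 0.79 ± 0.11 log2 units (SE, adjusted p = 0.0176). A second Igfbp4 probe set was called too (1437406_x_at, 0.86 ± 0.14, adjusted p = 0.0366), 2 of 15 in all, where 0.258% of all probe sets were called higher, and 0 were called lower (0.545% of all). Without the 9 d placebo array, only the comparison of 6 d is left, against 1 placebo array, and neither probe set kept its call. That fit does not test the mean over both days.

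Igf1 read 155 under placebo and 214, 272 and 548 under RAD001 at 6 d, and 153 against 212, 286, 296 and 423 at 9 d. Igfbp6 read 313 against 491, 503 and 907, and 291 against 438, 642, 647 and 742. Igfbp7 read 636 against 794, 863 and 1151, and 512 against 837, 876, 898 and 1008. In these 3 genes all 7 RAD001 arrays lay above both placebo arrays, and none of the differences passed (0.99 ± 0.36, 1.01 ± 0.27 and 0.68 ± 0.15, adjusted p = 0.387, 0.202 and 0.112). The share of all probe sets with all 7 above both was not computed, and a looser rule was counted instead. In 9 of the 15 probe sets the RAD001 arrays of each day lay all on 1 side of that day's single placebo array, as in 25.2% of all probe sets tested. Irs1 read 203 against 153, 190.3 and 258 at 6 d and 283 against 161, 245, 331 and 336 at 9 d, with RAD001 arrays on both sides of placebo (-0.09 ± 0.31, adjusted p = 0.963). Igfbp5 read 194 against 413, 504 and 549 at 6 d, and 355 against 279, 322, 492 and 919.6 at 9 d. Its RAD001 arrays were all above placebo at 6 d and on both sides of it at 9 d (0.83 ± 0.40, adjusted p = 0.57). Igfbp2 read 655 against 453, 732 and 1147, and 557 against 402, 508, 707 and 787, also on both sides of placebo (0.10 ± 0.35, adjusted p = 0.965). Igf1r read 163 against 236, 255 and 260.3 at 6 d and 229 against 201, 256, 289 and 303 at 9 d, with 1 RAD001 array of 9 d below placebo (0.40 ± 0.18, adjusted p = 0.519).

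**Figure D2:**
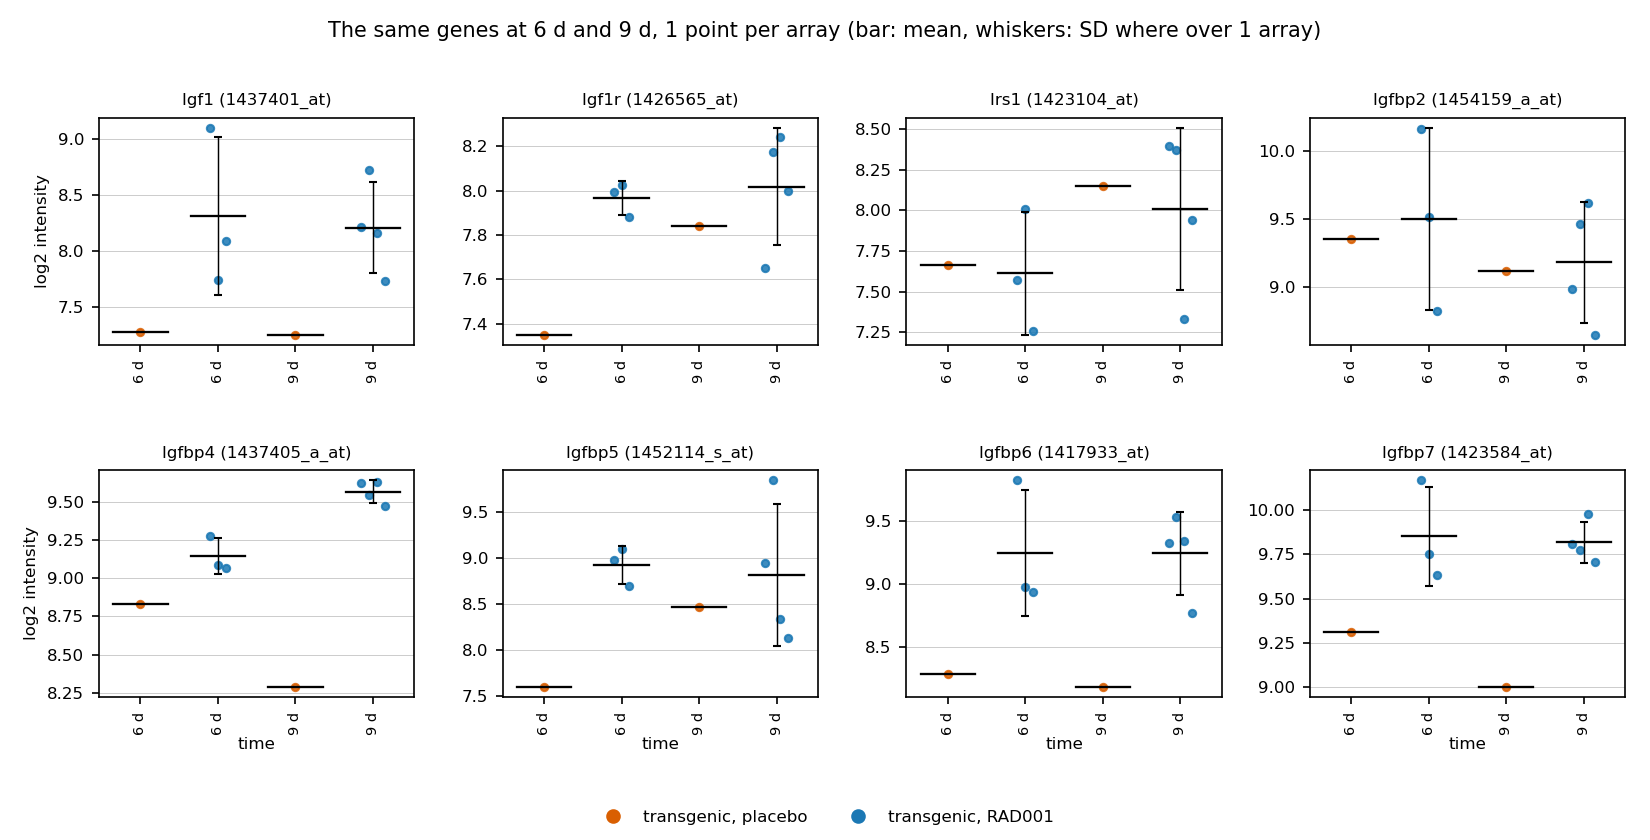
The log2 intensity of the same genes is plotted for the 9 arrays of 6 d and 9 d, with the mean of each group and its SD where it holds more than 1 array. In the panels of Igf1, Igfbp4, Igfbp6 and Igfbp7 all RAD001 points lie above both placebo points, and in that of Irs1 they lie on both sides. By the looser rule of each day against its own placebo array, 25.2% of all probe sets did not overlap.

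**Figure D3:**
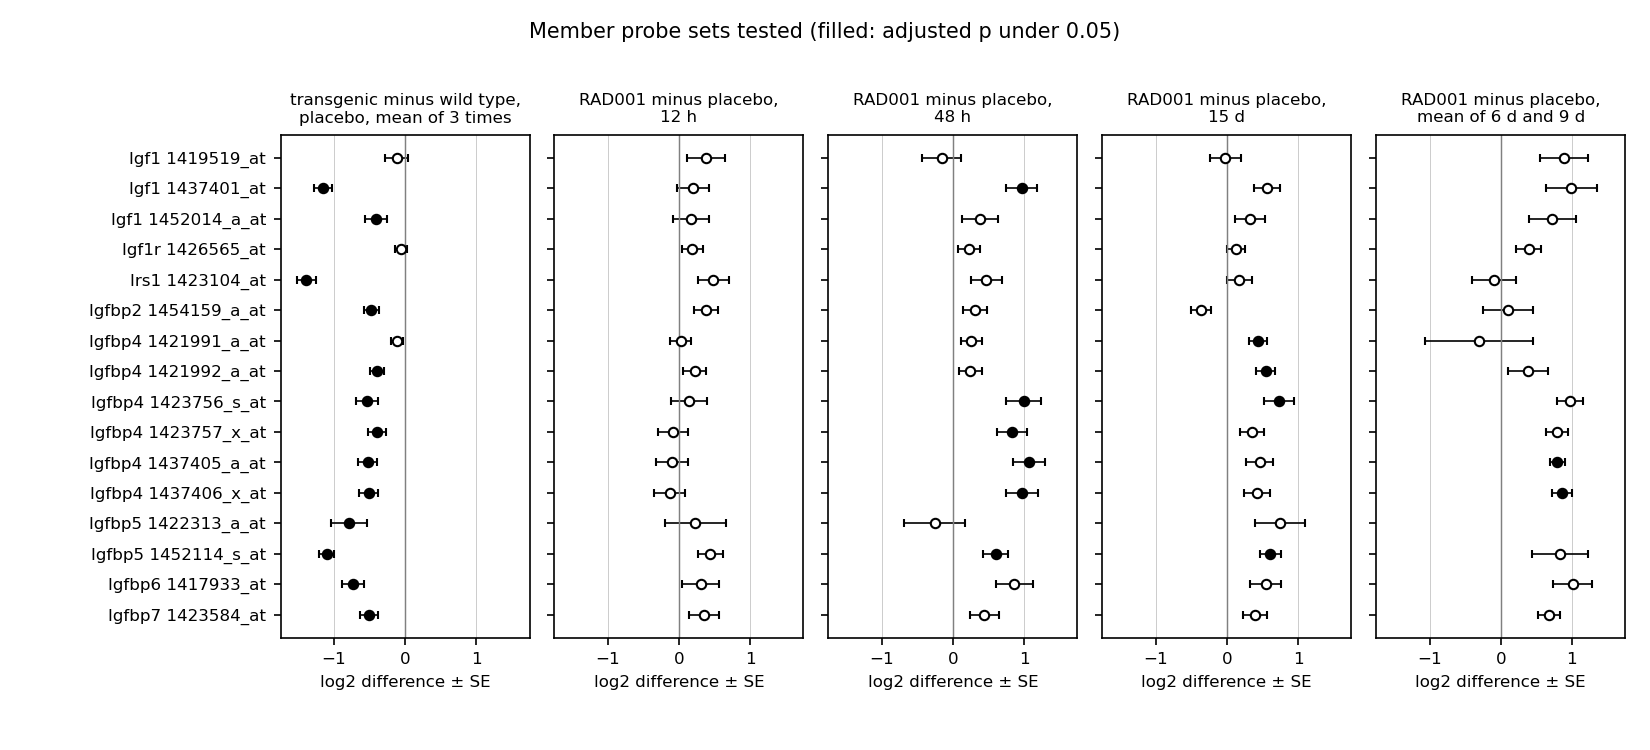
The log2 difference and its SE are plotted for each tested probe set, for the genotype comparison and the RAD001 comparisons, and filled points passed an adjusted p of 0.05. The 16 genotype differences lie below 0, with 13 filled, and the filled RAD001 points lie above 0 and belong to Igf1, Igfbp4 and Igfbp5.

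Compared with wild type placebo, RAD001-treated transgenic glands were called lower in 3 of 16 probe sets at 12 h (7.41% of all), 2 at 48 h (6.59%) and 1 at 15 d (0.722%). None was higher, where 10.1%, 5.93% and 0.928% of all were. These comparisons share the wild type arrays with the genotype comparison and the RAD001 arrays with the drug comparison. Irs1 differed from wild type by -1.07 at 12 h (adjusted p = 0.000638) and by -1.37 at 48 h (adjusted p = 0.000192). No RAD001 array of 12 h (119 to 206) reached the lowest wild type array of that time (252), and none did at 48 h either. Igfbp5 was lower by 0.56 and 0.57 at those times (adjusted p = 0.021 and 0.0347). The third call of 12 h was the brightest Igfbp4 probe set (-0.67 ± 0.22, adjusted p = 0.0314), whose RAD001 arrays (395 to 684) reached the lowest wild type array (684). It was not called between the placebo genotypes at 12 h (adjusted p = 0.0745). At 48 h the RAD001 arrays of the brightest Igfbp5 probe set lay between the other groups, above every transgenic placebo array and below every wild type array. Igf1 and Igfbp4 of 48 h overlapped with wild type under RAD001. At 15 d the call was Igfbp2, which differed from wild type by -0.88 ± 0.18 (SE, adjusted p = 0.011), with the RAD001 maximum of 342 below the wild type minimum of 399. It was not called without wild type replicate 1 (adjusted p = 0.0906) or within set A (-0.70 ± 0.22, adjusted p = 0.223, with 0 of 16 called beside 0.324% of all).

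The genotypes also differed in genes of the prostate stroma, the smooth muscle and fibroblasts around the ducts. Of 16 tested smooth muscle genes, 12 were lower and 0 higher in transgenic glands under placebo, with a median of -0.81 log2 units beside -0.04 over all probe sets. For this and the next lists, 18.4% of all probe sets were called lower and 15.1% higher. The actin-binding genes Tagln (-0.91) and Flna (-1.10) and the actin Acta2 (-0.72) had the smallest p. Of 19 fibroblast and matrix genes, 9 were lower and 1 higher, with a median of -0.49. The proteoglycan Dcn (-0.82) and the collagen Col1a2 (-0.96) were lower, and the protease inhibitor Timp2 was higher (1.16). Of 14 luminal markers, 6 were higher, led by the keratin Krt8 (0.91) and the cadherin Cdh1 (0.82), and of 7 basal markers 4 were lower, led by Trp63 (-0.74). Of 3 endothelial genes tested 1 was higher, and of 8 macrophage and leukocyte genes 1 was lower. Of 2 adipocyte genes 0 were called and of 2 skeletal muscle genes 1 was lower. The macrophage and leukocyte share (12.5% lower) lay under that of all probe sets, and the endothelial, adipocyte and skeletal muscle lists hold few tested genes. No shift is read from these lists.

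Under RAD001, stromal genes were read in the same way, at each time apart. Smooth muscle genes called higher numbered 2 of 16 at 12 h, 2 at 48 h, 6 at 15 d and 0 at 6 d and 9 d, with medians of 0.43, 0.45, 0.37 and 0.35, where 0.626%, 1.97%, 2.42% and 0.258% of all probe sets were called higher. Fibroblast and matrix genes called higher numbered 0, 1, 2 and 1 of 19, with Dcn at 0.72 at 48 h, 0.70 at 15 d and 0.58 at 6 d and 9 d. The medians of this list were smaller, at 0.10, 0.19, 0.03 and 0.31, beside 0.02, 0.004, 0.02 and -0.02 over all probe sets. At 15 d the median of the list thus lay near that of all probe sets. Its mean log2 deviation differed more, at -0.31 on average in transgenic placebo arrays of 15 d (-0.49 to -0.14) and -0.12 in RAD001 arrays (-0.32 to 0.06). The smooth muscle score of an array, the mean log2 deviation of its list, was 0.33 to 0.71 in wild type and -0.57 to -0.16 in transgenic placebo arrays at 12 h. It was 0.13 to 0.52 against -0.80 to -0.14 at 48 h and 0.33 to 0.57 against -0.61 to 0.04 at 15 d. The genotypes did not overlap in this score at any time. RAD001 arrays ran from -0.08 to 0.45, from -0.17 to 0.32 and from -0.82 to 0.38.

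With the smooth muscle score of each array subtracted from every probe set, the genotype comparison asks which genes moved more or less than that list, whose score differed by -0.79. Irs1 was still lower by 0.60 ± 0.16 log2 units (SE, adjusted p = 0.000807), Igf1 by 0.37 ± 0.15 (adjusted p = 0.0251) and Igfbp5 by 0.31 ± 0.11 (adjusted p = 0.0105). These 3 of 16 stand beside 0.317% of all probe sets called lower on that scale. Called higher were 6 probe sets, where 88.4% of all were: Igf1r (0.73), Igfbp2 (0.32), 3 of Igfbp4 and 1 of Igf1. Igfbp6, Igfbp7 and the brightest Igfbp4 probe set were not called (0.05, 0.29 and 0.26). A difference on this scale shows unequal change within an array, and not that a gene was unchanged.

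With the fibroblast and matrix score subtracted instead, which differed by -0.30 between the genotypes, 4 of 16 probe sets were lower, where 2.13% of all were. Irs1 was lower by 1.09, Igf1 by 0.85, Igfbp5 by 0.80 and Igfbp6 by 0.43 (adjusted p = 0.00857 for the last). None was called higher, where 39% of all were. This score is a mean over genes that moved unequally, 9 called lower and 1 higher, and the median of the list differed more (-0.49). As measured, Col1a2 of the list differed by -0.96 and Ogn, a matrix gene outside it, by -1.61, beside -1.15 for Igf1. A lower value on this scale thus does not show a fall beyond that of every stromal gene. Under RAD001 the scores differed from placebo by 0.44 and 0.22 at 48 h. Relative to them, 0 of 16 probe sets were called against the smooth muscle score (13% of all) and 1 against the fibroblast score (0.641% of all), Igfbp4 at 0.85 (adjusted p = 0.0345). At 15 d the single call relative to either score was Igfbp2, which was lower by 0.65 ± 0.15 (adjusted p = 0.00844, beside 5.25% of all called lower) and by 0.55 ± 0.14 (adjusted p = 0.0242, beside 2.73%). At 12 h, and at 6 d and 9 d, 0 probe sets were called relative to either score, where 3.04% and 0.0147% of all were at 12 h and 0.707% and 0.567% at the later days. At an unadjusted p under 0.05, relative to the smooth muscle and the fibroblast and matrix score in that order, limma gave 0 and 2 of 16 at 12 h (30% and 4.25% of all) and 3 and 7 of 15 at the later days (21% and 11.9% of all).

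**Figure D4:**
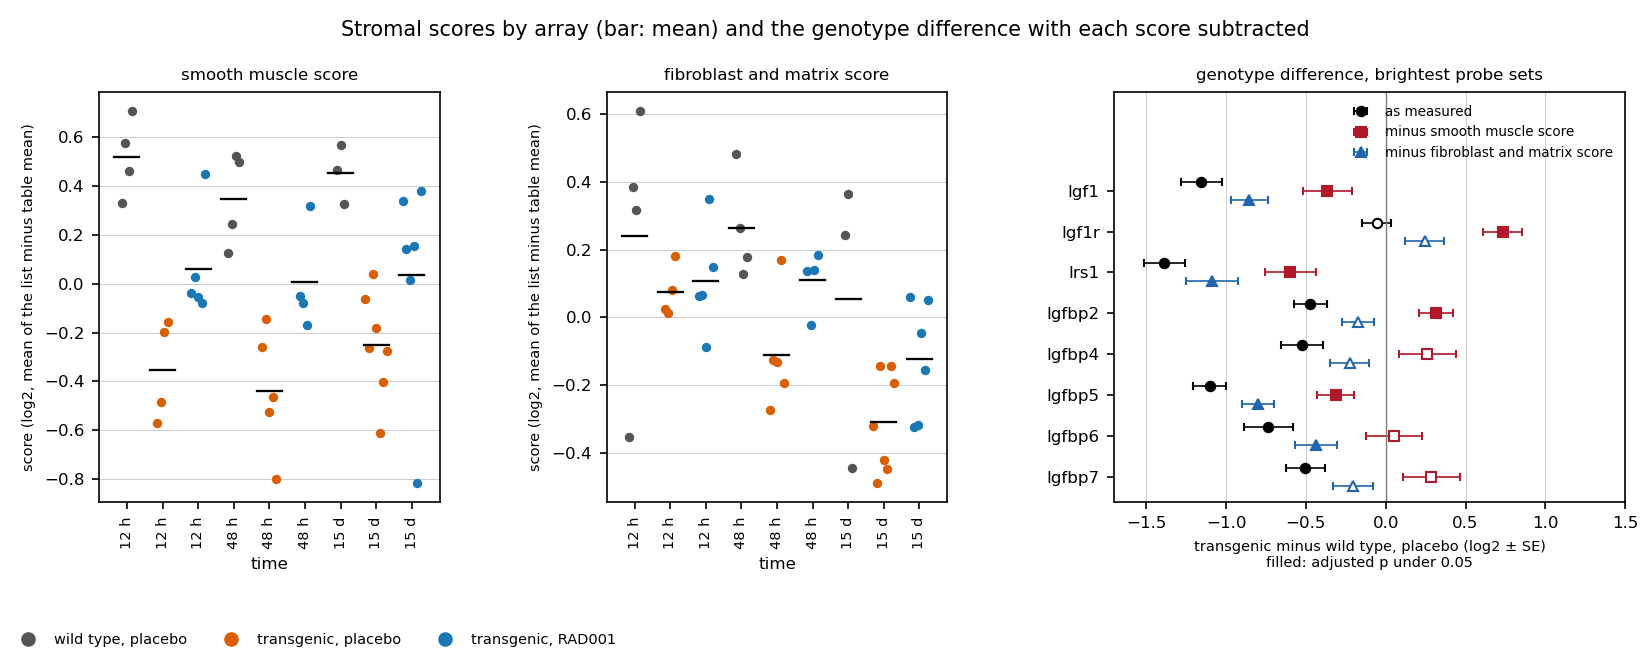
The smooth muscle score and the fibroblast and matrix score are plotted for each array of the larger table by group and time, and the genotype difference of the brightest probe set of each gene is plotted as measured and with each score subtracted. Irs1, Igf1 and Igfbp5 have filled points below 0 on all 3 scales, and Igf1r lies above 0 once the smooth muscle score is subtracted.

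Between arrays of the same group, some genes followed the stromal scores and Irs1 did not pass. Wild type replicate 1 of 12 h and replicate 3 of 15 d had the lowest fibroblast and matrix scores of their groups (-0.35 and -0.45). They were also the lowest of their groups in Igf1, Igfbp2, Igfbp4, Igfbp5, Igfbp6 and Igfbp7, and the highest in Irs1 (427 and 497). Over the deviations of all 42 arrays from their group means, 16 relations of 8 genes with 2 scores were tested by permutation within groups, two-sided, and 6 passed by Pearson's r after Benjamini-Hochberg adjustment. How many of all probe sets would pass was not computed, so these counts do not set the genes of the axis apart from other genes. Against the fibroblast and matrix score, r was 0.55 for Igfbp6 (permutation p = 0.00054, adjusted 0.00864, rho = 0.57 with adjusted p = 0.004). It was 0.53 for Igf1 (permutation p = 0.0116, adjusted 0.0309, rho = 0.40 with adjusted p = 0.0558), 0.51 for Igfbp2, 0.50 for Igfbp5 and 0.47 for Igfbp4 (adjusted permutation p = 0.00992, 0.0261 and 0.0149). Their rho was 0.49, 0.44 and 0.52 (adjusted permutation p = 0.00896, 0.0325 and 0.00896). For Irs1 r was -0.12 (adjusted permutation p = 0.59). Against the smooth muscle score, r was 0.52 for Igfbp2 (adjusted permutation p = 0.00992, rho = 0.51 with adjusted p = 0.00896) and 0.07 for Irs1 (adjusted permutation p = 0.729). By Spearman's rho 8 of the 16 passed, 5 of them also by r. The 3 others were Igfbp5 with the smooth muscle score, at the highest rho of the 16 (0.62, adjusted permutation p = 0.00096, against r = 0.45 with 0.076), Igfbp7 with the fibroblast and matrix score (0.43, adjusted permutation p = 0.0315, against r = 0.36 with 0.0526) and Igf1r with the smooth muscle score (0.39, adjusted permutation p = 0.0462, against r = 0.28 with 0.17). Without the 2 arrays farthest from the median score, the 5 relations with the fibroblast and matrix score were 0.48 for Igfbp6, 0.35 for Igf1, 0.41 for Igfbp2, 0.37 for Igfbp5 and 0.41 for Igfbp4, and that of Igfbp2 with the smooth muscle score was 0.50. Within 12 h and 48 h alone (26 arrays), 3 relations passed by r, Igfbp4 (0.61) and Igfbp6 (0.49) with the fibroblast and matrix score and Igfbp5 with the smooth muscle score (0.56).

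The probe set most like the brightest Igf1 probe set over the 42 arrays of the larger table was the brightest Igfbp5 probe set, with Pearson's r = 0.87. This is a description over arrays that share group differences and tissue composition, with no test. Among probe sets of other genes, the most alike were Meg3 (0.85), a noncoding RNA, the collagen Col1a2 (0.84), the matrix proteoglycans Dcn (0.80) and Ogn (0.80), Nfix (0.79 and 0.77 on 2 probe sets), a transcription factor, P2rx1 (0.79), an ATP-gated channel, and Acta2 (0.78). Within the axis r was 0.59 for Igfbp2, 0.51 for Igfbp7, 0.39 for Igfbp6, 0.36 for the brightest Igfbp4 probe set, 0.35 for Irs1 and 0.10 for Igf1r. The dimmest tested Igf1 probe set, 1419519_at, had r = -0.03 with the brightest.

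Other genes of the IGF pathway were read from a list of 40, of which 34 are on the array and 28 were tested. Under placebo 3 of the 28 were higher (10.7%) and 7 lower (25%) in transgenic glands, where 15.1% and 18.4% of all probe sets were, with a median of -0.18 beside -0.04 over all. These shares lie near those of all probe sets, so the genes named next are single genes and not a result about the list. The lower genes included the IGF-binding-like Igfbpl1 (-1.18 ± 0.16, adjusted p = 2.92e-07), the growth hormone receptor Ghr (-1.11 ± 0.15, adjusted p = 2.79e-07), whose activation induces Igf1 in liver, and its effector Stat5a (-0.81 ± 0.12, adjusted p = 2.6e-06). The catalytic subunit Pik3ca (-0.46) and the protease Htra1 (-0.39), which cleaves binding proteins, were lower too. Igf2r, the receptor that clears IGF2, was higher (0.44 ± 0.08, adjusted p = 7.41e-05). Under RAD001 0 of the 28 were called at 12 h, 48 h or 15 d, and 0 of 26 at 6 d and 9 d. At an unadjusted p under 0.05 limma gave 3, 2, 3 and 1 of them, beside 12%, 17%, 19.2% and 9.87% of all probe sets.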

How the data were processed

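Per the labels, RNA of ventral prostate was labelled with biotin and read on Affymetrix arrays. Both deposited tables, of 42 and 9 arrays, hold the authors' intensities of probe sets on a linear scale. They had been scaled between arrays, and the software and method are not given in the sources used here, so a difference is relative to the other probe sets of an array. The number of arrays limits the precision.

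Intensities were floored at 16 and log2 transformed. On each array 9.15% to 15.8% of probe sets lay under the floor. Gene symbols came from GEO's platform annotation: 20380 probe sets have 1 symbol, 691 several and 1555 none. In the larger table, 2 probe sets with a value outside the scanner range were left out. Each table was fitted on its own in limma 3.58.1 (R 4.3.3) with 1 mean per group and an intensity trend, over all probe sets with a mean log2 at or above the 40th percentile (13574 and 13576), each tested apart. P-values were adjusted by Benjamini-Hochberg over all of them, with a threshold of 0.05. Correlations used scipy 1.17.1 with 100000 permutations within groups. The fit was tested on simulated data. No column of values was left unused.

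A stromal score is the mean log2 deviation of a list's genes, with 1 probe set per gene, and no gene of the axis is in either list. The genes of the axis and the lists were chosen with earlier results of these data known. Genes named outside the axis are at most 3 per cell type list and 6 of the pathway list with the smallest p, and the 8 probe sets most like Igf1. Replicate numbers do not pair the arrays: deviations of same-numbered arrays correlated at -0.25 to 0.51, and not every pair was above 0.1. The array sets of 15 d and the arrays with many zeros were defined after seeing the data. Other settings were the filter, a floor of 64, quantile normalisation, median scaling, 1 probe set per gene, array weights, the compared groups alone, a block, and leaving out arrays.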

Additional observations from a re-analysis of the deposited data

Results flagged for a closer look

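Of 143 groups of 4 to 10 arrays examined for single probe sets of the axis, 6 held an array far from the others, and chance flags about 1 group in 20. Igf1 probe set 1452014_a_at read 216 on wild type replicate 3 of 48 h, against 149 on the next array. Igf1r read 151 on wild type replicate 2 of 48 h, against 131 on the next. Igfbp2 read 545 on wild type replicate 1 of 12 h, where the next array read 739, and 560.5 on RAD001 replicate 3 of 12 h, where the next read 683. Igfbp4 probe set 1421991_a_at read 301 on RAD001 replicate 4 of 12 h, against 189.6 on the next. Igfbp5 probe set 1422313_a_at is listed at 0 on transgenic placebo replicate 8 of 15 d, against 145 on the next array. The genotype difference of Irs1 differed between 12 h, 48 h and 15 d by limma's F-test (adjusted p = 0.0323).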

How the results depend on the processing

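Of 2599 values of single probe sets under other settings, 2449 kept their direction and their side of the threshold, 68 lost a call, 82 gained one and 0 reversed. Each count below is of the 15 or 16 probe sets tested, with the share of all probe sets called in the same setting in brackets. With 1 probe set per gene, of 8 tested, 7 (33.5%) were called for the genotype, 3 (3.54%) for RAD001 at 48 h, 1 (5.78%) at 15 d, 1 (0.888%) at 6 d and 9 d, and 7 (26.6%) for the genotype at 48 h.

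For RAD001 at 15 d the count of 4 (5.53%) became 0 with the compared groups alone (1.61%), 0 without set B (0.457%), 0 within set A (0.457%), 2 within set B (5.85%) and 2 without the array past the largest gap along the first component (4.47%). For RAD001 at 12 h, 0 (1.47%) became 2 with array weights (8.9%). For 6 d and 9 d the 2 calls (0.803%) became 1 with no filter (0.698%, of 21 tested), 5 with array weights (1.71%), 0 with the replicate block (0.0221%), 0 for 6 d alone (0.14%) and 1 for 9 d alone (0.236%).

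The 4 genotype calls at 12 h (21%) became 2 under quantile normalisation (21.8%), 8 with array weights (31%), 8 with the compared groups alone (26.8%), 7 with the replicate block (26%), 7 without arrays with many zeros (25.4%) and 7 without set B (29.7%). The 6 at 15 d (21%) became 3 with the compared groups alone (5.22%), without set B (2.73%), with the set as a block (4.45%) and within set A (2.73%). For treated transgenic against wild type glands at 12 h, 3 (17.6%) became 8 with weights (29.8%) and 6 with the compared groups alone (21.6%), the replicate block (22.4%), no arrays with many zeros (21.5%) or no set B (25.8%). At 48 h 2 (12.5%) became 1 under median scaling (11.2%). At 15 d 1 (1.65%) became 5 with weights (17.6%) and 0 with the compared groups alone (0.111%), without set B (0.324%), with the set as a block (0.0221%) and within set A (0.324%). For wild type 48 h against 12 h, 0 (16.4%) became 2 with weights (27.5%), the compared groups alone (24.6%) or no arrays with many zeros (20.7%), and 1 with the replicate block (20.9%) or without set B (25.5%). For the genotype by time, 1 (21.3%) became 2 with a floor of 64 (23.4%) or without arrays with many zeros (18.9%), 3 with weights (33.5%), and 0 with the compared groups alone (19.9%), the replicate block (10.6%), without set B (9.16%) or with the set as a block (9.91%). For RAD001 by time, 0 (0.398%) became 3 with weights (1.52%). Relative to the fibroblast and matrix score in place of the smooth muscle score, the calls were 4 (41.1%) in place of 9 (88.7%) for the genotype, 1 (0.641%) in place of 0 (13%) for RAD001 at 48 h and 2 (9.06%) in place of 4 (74.4%) for the genotype at 12 h. The relations with the stromal scores that passed by r were 3 in place of 6 with 12 h and 48 h alone.

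The replicate block moved no other of these counts by over 1.5 times, and the cause of each change was not tested. Leaving out 1 array at a time gave 12 to 13 calls for the genotype, 0 to 1 for RAD001 at 12 h, 2 to 7 at 48 h, 2 to 6 at 15 d and 0 to 2 at 6 d and 9 d. It gave 2 to 7, 8 to 11 and 4 to 7 for the genotype at 12 h, 48 h and 15 d, and 1 to 5, 1 to 2 and 0 to 3 for treated transgenic against wild type glands. It gave 0 to 1 for wild type 48 h against 12 h, 0 for the same in transgenic glands, 0 to 2 for the genotype by time and 0 for RAD001 by time. Where 1 array is left of a group, it was assumed to vary like the others. Without a placebo array of 6 d or 9 d, that day drops out and the comparison is that of the other day alone. Signal limits Irs2 and Igfbp3, which were not tested.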
